A study of Mus musculus with 9 samples.

Results

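The genes examined here encode the vascular endothelial growth factor (VEGF) ligands and receptors, together with a transcript that endothelial cells make in response to VEGF. They are the ligand genes Vegfa, Vegfb, Vegfc and Pgf, the receptor genes Kdr, Flt1 and Flt4, the co-receptor genes Nrp1 and Nrp2, and Esm1, which encodes the secreted proteoglycan endocan. They were chosen by gene symbol as known members of the pathway. All 10 were present among the 52183 genes of the expression table, and all 10 reached the minimum mean of 1 FPKM for testing. FPKM counts fragments per length of transcript and per depth of the library, so levels of different genes can be set side by side on this scale.

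The RNA came from mouse bone marrow endothelial cells. The 3 libraries labelled Thbs1 knockout came from mice aged 18 months, the 3 aged controls from mice of 18 months, and the 3 young controls from mice of 3 months. In all groups an antibody to VE-cadherin, a junction protein of endothelial cells, was injected behind the eye 10 minutes before the mice were killed, and cells of the long bones were then sorted by flow cytometry into lysis reagent. Libraries were made from 2 ng of RNA with a kit that amplifies full-length cDNA. The strain, the design of the knockout allele and the genotype of the controls beyond the word control are not given in the labels, nor do they say whether each library is its own mouse. The p-values therefore cover the variation among these libraries, which may be technical.

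Depth recovered from the FPKM values was 27230000 to 30430000 fragments in the libraries labelled knockout, 22120000 to 24580000 in the aged controls and 22830000 to 23860000 in the young controls. The targeted gene went against its label. Thbs1, which encodes the secreted matrix protein thrombospondin-1, had FPKM values of 25.63, 19.45 and 19.84 in the labelled knockout libraries, 0.67, 0.82 and 1.17 in aged controls and 4.55, 3.89 and 4.18 in young controls. Gene-level values cannot show whether these fragments come from an allele that makes protein, and the group is therefore called the libraries labelled knockout throughout. The sorted cells carried the defining endothelial transcripts. All 10 pan-endothelial markers were present in every library, with summed levels of 2289 to 2382 FPKM in the libraries labelled knockout, 2541 to 2722 FPKM in the aged controls and 2250 to 2321 FPKM in the young controls. Cldn5, the marker with the highest level, was at 426.2 to 569.88, 767.16 to 864.47 and 460.51 to 495.35 FPKM in the same order of groups. It was the only 1 of the 10 to pass the test, highest in the aged controls, so the higher aged sum is not a shift of all 10 markers. Over all tested genes 1.20% passed as higher in aged than young controls, and 2.01% as lower in the libraries labelled knockout than in aged controls.

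VEGF-A is a secreted growth factor that acts mainly through the tyrosine kinase receptor VEGFR2, the product of Kdr, to drive endothelial survival, migration and division. VEGFR1, the product of Flt1, binds VEGF-A tightly but signals weakly and can act as a decoy, and VEGF-B and placental growth factor bind VEGFR1 but not VEGFR2. VEGF-C is the main ligand of VEGFR3, the product of Flt4, a receptor of lymphatic vessels that sinusoidal vessels of the marrow also carry. Neuropilins bind VEGF beside these receptors and also bind class 3 semaphorins. In the marrow, VEGFR2 signalling is known for its part in the regrowth of sinusoidal vessels after injury.

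The promoters of the 3 members that passed the test in any comparison, Vegfa, Vegfb and Esm1, and of Kdr, the member with the highest level, are shown because these genes carry the results. The sequences are RefSeq promoters on GRCm38.p6, where all 10 members matched by symbol. Each is the 250 bases before the transcript start, 5′ to 3′ on the gene's own strand, with capitals at motif matches. Vegfa lies on the minus strand at chr17:46032378-46032627, Vegfb on the minus strand at chr19:6987652-6987901, Esm1 on the plus strand at chr13:113209409-113209658 and Kdr on the minus strand at chr5:75978456-75978705.
Vegfa: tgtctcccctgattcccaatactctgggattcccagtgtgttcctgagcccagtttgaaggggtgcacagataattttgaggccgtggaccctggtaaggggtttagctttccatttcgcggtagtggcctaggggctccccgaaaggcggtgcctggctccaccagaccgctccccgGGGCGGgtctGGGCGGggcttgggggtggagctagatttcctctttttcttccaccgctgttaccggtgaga
Vegfb: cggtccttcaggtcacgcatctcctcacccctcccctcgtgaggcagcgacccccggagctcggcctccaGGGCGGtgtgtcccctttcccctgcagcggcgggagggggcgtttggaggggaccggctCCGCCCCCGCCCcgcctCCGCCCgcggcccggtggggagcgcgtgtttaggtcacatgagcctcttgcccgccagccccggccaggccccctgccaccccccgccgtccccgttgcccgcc
Esm1: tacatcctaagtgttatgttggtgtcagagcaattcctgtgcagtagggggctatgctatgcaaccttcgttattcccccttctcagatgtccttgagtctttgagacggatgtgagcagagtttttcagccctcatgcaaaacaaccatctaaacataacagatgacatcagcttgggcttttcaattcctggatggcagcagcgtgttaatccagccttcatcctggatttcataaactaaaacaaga
Kdr: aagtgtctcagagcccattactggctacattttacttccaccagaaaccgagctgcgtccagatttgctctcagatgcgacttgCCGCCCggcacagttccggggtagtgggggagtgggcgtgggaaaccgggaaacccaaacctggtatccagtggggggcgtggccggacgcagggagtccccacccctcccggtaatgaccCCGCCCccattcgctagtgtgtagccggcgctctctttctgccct

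The windows were searched on both strands for 6 motifs, namely the hypoxia response element core ACGTG, the Sp1 box GGGCGG, the AP-1 site TGANTCA, the Egr site GCGNGGGCG, the TATA box TATAAA and the NF-kB site. These motifs occurred in 16.6%, 32.7%, 6.75%, 4.7%, 12.4% and 0.981% of all 32817 mouse promoter windows of the same length, in the same order. The Vegfa window printed held 2 Sp1 boxes and the Kdr window held 2. A second RefSeq window of Vegfa, not printed, before a later start on the minus strand at chr17:46025164-46025413, held 1 hypoxia response element core, 211 bases before that start, and 1 Sp1 box. The Vegfb window held 4 Sp1 boxes and 1 Egr site, and the Egr site overlaps Sp1 boxes in the longest run of capitals. The Esm1 window held none of the 6 motifs. GC content was 59.2% for Vegfa, 76.4% for Vegfb, 44% for Esm1 and 61.6% for Kdr, against a median of 52.4% and quartiles of 45.2% and 61.2% over all windows. A match describes the letters only.

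In the GENCODE annotation on GRCm38, Kdr spans positions 75932827 to 75978458 of chromosome 5, with Flt1 on the same chromosome at 147561604 to 147726011. Vegfa spans 46016993 to 46032369 of chromosome 17, Vegfb 6982473 to 6987651 of chromosome 19 and Esm1 113209659 to 113218098 of chromosome 13. Each FPKM value covers the exons of a gene, untranslated regions included. No exon of another gene overlaps those of the members except a microRNA gene, Mir1903, which shares 80 exon bases with Nrp1 on the same strand.

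Kdr had the highest level of the 10 genes in all 3 groups, and Flt4 came next, with no library of either gene overlapping the other. Kdr averaged 297.1 ± 36.3 FPKM in the libraries labelled knockout, 260.2 ± 23.3 FPKM in the aged controls and 337.1 ± 3.63 FPKM in the young controls (SD, n = 3 each). Below Flt4, the genes Nrp1, Nrp2, Flt1 and Vegfa held the middle of the order in each group. Nrp1, Vegfa, Nrp2 and Flt1, in that order, each overlapped the next in the libraries labelled knockout. In the aged controls Nrp1 and Nrp2 overlapped, Flt1 lay below Nrp2 but overlapped Nrp1, and Vegfa was separate. In the young controls Nrp1 was separate and Nrp2, Flt1 and Vegfa overlapped their neighbours. Vegfb, Vegfc and Esm1 were lower, and Pgf was the lowest in each group, at 0.993 ± 0.812 FPKM in the libraries labelled knockout, 0.497 ± 0.244 FPKM in the aged controls and 1.75 ± 0.612 FPKM in the young controls (SD, n = 3 each).

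**Figure D1:**
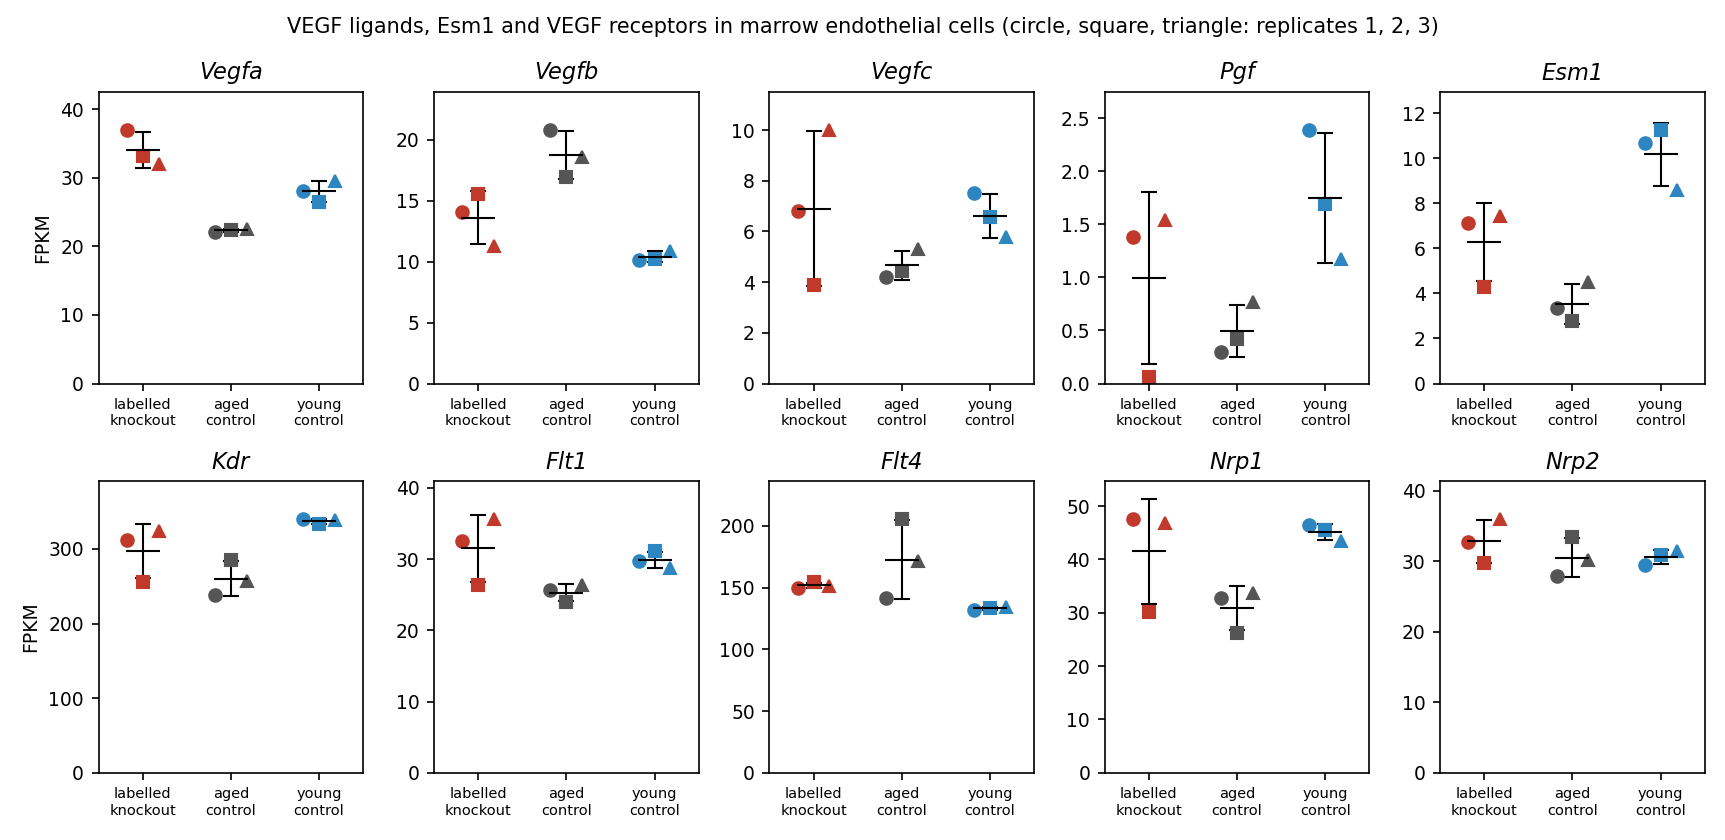
FPKM of the 10 genes in each library, with the labelled knockout, aged control and young control groups from left to right in every panel, each library as a point and the group mean as a bar. The 3 Vegfa points of the labelled knockout libraries, at 32.04 to 36.99 FPKM, lie above all 6 control points, and the aged points of Vegfb, at 16.91 to 20.78 FPKM, lie above all other points.

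Vegfa was the ligand with the highest level in every library. It had FPKM values of 36.99, 33.17 and 32.04 in the labelled knockout libraries, 22.12, 22.4 and 22.55 in aged controls and 28.06, 26.53 and 29.56 in young controls. The 3 groups did not overlap, with the libraries labelled knockout highest and the aged controls lowest. Vegfa was 1.52-fold higher in the libraries labelled knockout than in the aged controls, a difference of 0.58 on the log2(FPKM + 1) scale (SE 0.0870, 95% interval 0.39 to 0.78), and passed the limma test with an adjusted p of 0.00706 over the 11796 genes tested. It passed in all 9 fits that left out a library and in all 10 other settings, with differences of 0.51 to 0.63. In the aged controls Vegfa was 0.797 times the level of the young controls, a difference of -0.31 (95% interval -0.51 to -0.12) that did not pass (limma adjusted p 0.0696). In the libraries labelled knockout it was 1.21 times the level of the young controls (difference 0.27, 95% interval 0.08 to 0.46), which did not pass either (limma adjusted p 0.349). The value for each gene is an average over the sorted cells, in which fewer cells of a type and less RNA per cell cannot be told apart.

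Vegfb, whose product binds VEGFR1 and is known for roles in heart and fat, was highest in the aged controls. It had FPKM values of 14.06, 15.51 and 11.25 in the labelled knockout libraries, 20.78, 16.91 and 18.53 in aged controls and 10.11, 10.22 and 10.9 in young controls. The young controls were lowest, and no groups overlapped. Vegfb rose in the aged controls to 1.80 times the level of the young controls, a difference of 0.79 (SE 0.124, 95% interval 0.51 to 1.06; limma adjusted p 0.0191). Against the aged controls, the libraries labelled knockout were at 0.726 times the level, a difference of -0.44 (95% interval -0.72 to -0.16) that did not pass (limma adjusted p 0.0730). The difference between the libraries labelled knockout and the young controls was 0.35 (95% interval 0.07 to 0.62; limma adjusted p 0.432). The age call did not hold without any 1 of the young controls, with limma adjusted p of 0.106, 0.0918 and 0.0839 when young replicate 1, 2 or 3 was left out.

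Vegfc and Pgf were lower and more variable. Vegfc, the gene of the VEGFR3 ligand, had FPKM values of 6.82, 3.89 and 10 in the labelled knockout libraries, 4.22, 4.45 and 5.32 in aged controls and 7.52, 6.57 and 5.78 in young controls. Labelled knockout replicate 2 was below all the aged controls, and replicates 1 and 3 were above them. The difference between the libraries labelled knockout and the aged controls was 0.41 (95% interval -0.14 to 0.96; limma adjusted p 0.341), and that between aged and young controls was -0.43 (95% interval -0.97 to 0.12; limma adjusted p 0.284).

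Pgf, the gene of placental growth factor, had FPKM values of 1.38, 0.06 and 1.54 in the labelled knockout libraries, 0.3, 0.42 and 0.77 in aged controls and 2.39, 1.69 and 1.17 in young controls. These values correspond to 112, 5 and 122 fragments in the labelled knockout libraries, 19, 28 and 55 in aged controls, and 159, 112 and 81 in young controls. Labelled knockout replicate 2 was the lowest library of all. Pgf passed the filter with a mean of 1.08 FPKM over the 9 libraries, which the young controls carried. The difference between aged and young controls was -0.87 (95% interval -1.59 to -0.14; limma adjusted p 0.128), and that between the libraries labelled knockout and the aged controls was 0.32 (95% interval -0.40 to 1.05; limma adjusted p 0.579).

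Esm1, a VEGF-induced gene and a marker of sprouting endothelium, had the largest absolute difference with age among the 10 genes on the log2(FPKM + 1) scale. It had FPKM values of 7.15, 4.28 and 7.44 in the labelled knockout libraries, 3.34, 2.77 and 4.5 in aged controls and 10.68, 11.26 and 8.6 in young controls. The young controls were above all other libraries, and labelled knockout replicate 2 lay among the aged controls. In the aged controls Esm1 fell to 0.347 times the level of the young controls, a difference of -1.31 (SE 0.202, 95% interval -1.76 to -0.86; limma adjusted p 0.0185). The call did not hold without young replicate 1, 2 or 3, where limma adjusted p was 0.0948, 0.0892 and 0.0595. The libraries labelled knockout were at 1.78 times the level of the aged controls, a difference of 0.67 (95% interval 0.22 to 1.12) that did not pass (limma adjusted p 0.0869). They were at 0.618 times the level of the young controls, without overlap, and this difference of -0.64 (95% interval -1.09 to -0.19) did not pass either (limma adjusted p 0.348).

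None of the 5 receptor and co-receptor genes passed the limma test in any comparison. At an unadjusted p under 0.05 there were 2 of them between the libraries labelled knockout and the aged controls (Flt1 and Nrp1), 3 between aged and young controls (Kdr, Flt4 and Nrp1) and 0 between the libraries labelled knockout and the young controls, and limma-voom called 0. Over all tested genes the shares at that p were 24.1%, 27.7% and 9.27%. Kdr had FPKM values of 311.43, 255.79 and 323.99 in the labelled knockout libraries, 238.46, 284.87 and 257.25 in aged controls and 339.8, 333 and 338.6 in young controls. The young controls were above all other libraries, and labelled knockout replicates 1 and 3 were above the aged controls while replicate 2 lay among them. The difference between aged and young controls was -0.38 (95% interval -0.62 to -0.13; limma adjusted p 0.0772), and that between the libraries labelled knockout and the aged controls was 0.19 (95% interval -0.06 to 0.43; limma adjusted p 0.336).

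Flt1 had FPKM values of 32.59, 26.29 and 35.58 in the labelled knockout libraries, 25.65, 23.92 and 26.32 in aged controls and 29.73, 31.11 and 28.76 in young controls. The aged controls were below all young controls, and labelled knockout replicate 2 lay just under the highest aged control. The gene-level value sums the membrane and the soluble form of VEGFR1, which were not separated here. The difference between the libraries labelled knockout and the aged controls was 0.30 (95% interval 0.04 to 0.55; limma adjusted p 0.151), and that between aged and young controls was -0.23 (95% interval -0.48 to 0.02; limma adjusted p 0.214).

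Flt4 was higher in every aged control than in the young controls. It had FPKM values of 150.05, 154.2 and 151.2 in the labelled knockout libraries, 141.21, 205.4 and 171.48 in aged controls and 131.65, 133.34 and 134.63 in young controls. The aged controls were widely spread and took in all 3 libraries labelled knockout. The difference between aged and young controls was 0.36 (95% interval 0.08 to 0.63; limma adjusted p 0.107). Without aged replicate 1, the lowest of its group, it was 0.49 and passed (limma adjusted p 0.0391). Against the aged controls, the libraries labelled knockout differed by -0.17 (95% interval -0.44 to 0.11; limma adjusted p 0.435).

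Nrp1, whose product enhances VEGF-A binding to VEGFR2, had FPKM values of 47.52, 30.19 and 46.88 in the labelled knockout libraries, 32.75, 26.13 and 33.77 in aged controls and 46.41, 45.58 and 43.42 in young controls. Labelled knockout replicate 2 lay among the aged controls, and replicates 1 and 3 were above all young controls. The difference between aged and young controls was -0.54 (95% interval -0.92 to -0.16; limma adjusted p 0.0862), and that between the libraries labelled knockout and the aged controls was 0.40 (95% interval 0.02 to 0.77; limma adjusted p 0.191). Fitted with the 2 control groups alone, the age difference of Nrp1 passed (limma adjusted p 0.0408).

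Nrp2, a co-receptor for VEGF-C, had FPKM values of 32.76, 29.81 and 35.97 in the labelled knockout libraries, 27.98, 33.47 and 30.14 in aged controls and 29.54, 30.97 and 31.43 in young controls. All groups overlapped. The difference between aged and young controls was -0.01 with a 95% interval of -0.23 to 0.21 (limma adjusted p 0.966), and that between the libraries labelled knockout and the aged controls was 0.10 with an interval of -0.12 to 0.33 (limma adjusted p 0.568).

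**Figure D2:**
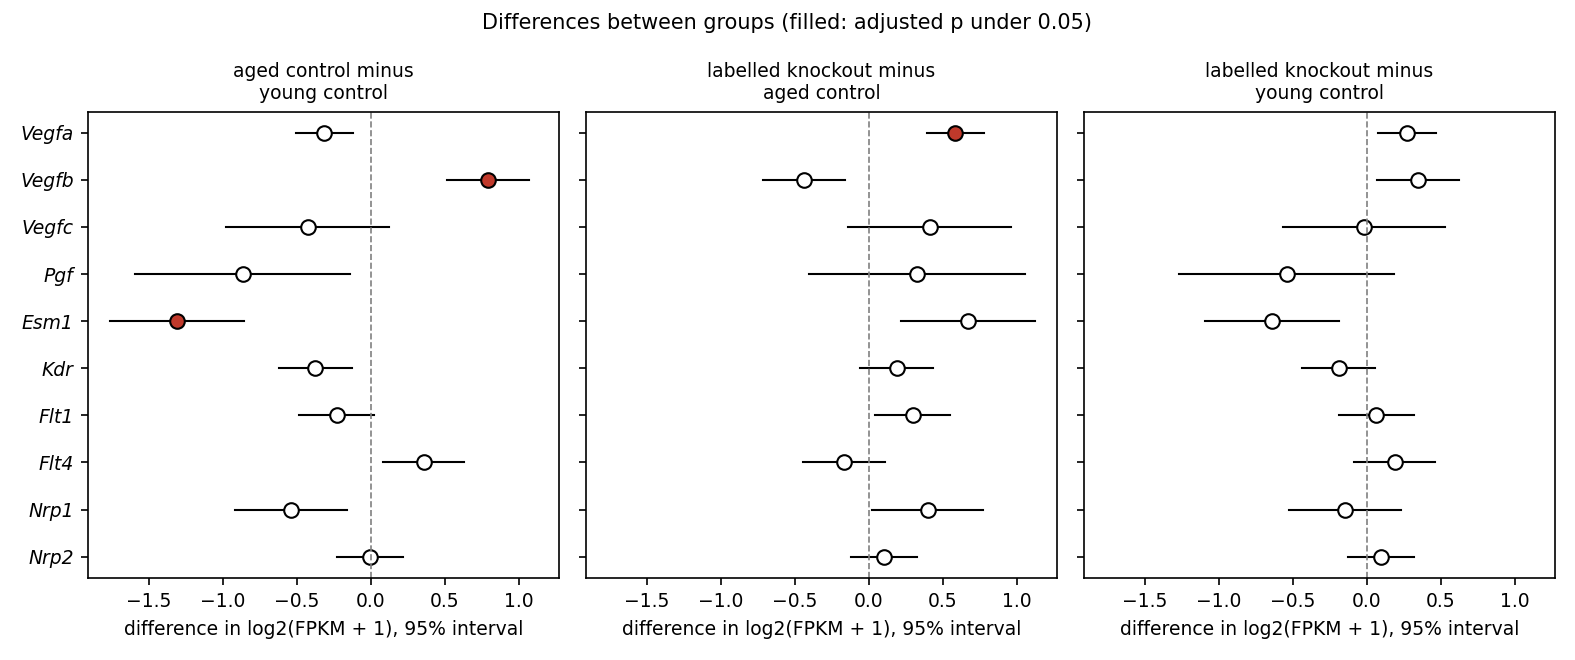
Differences of the 10 genes between groups in log2(FPKM + 1) with 95% intervals, filled where the adjusted p was under 0.05, in a panel for each comparison. The filled points are Vegfa at 0.58 for labelled knockout minus aged control, and Vegfb at 0.79 and Esm1 at -1.31 for aged control minus young control.

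Between the labelled knockout libraries and the aged controls, 1 of 10 genes was called higher (Vegfa) and none lower, where 4.79% of all tested genes were called, 2.78% higher and 2.01% lower. For these genes 8 differences were positive and 2 negative, with a median of 0.31 against 0.0025 over all genes tested. The libraries of both groups did not overlap for 2 of 10 genes, Vegfa higher and Vegfb lower, a share close to the 23.2% of all tested genes (12.1% higher and 11.1% lower). In the comparison of aged with young controls, 1 of 10 was called higher (Vegfb) and 1 lower (Esm1), where 3.99% of all tested genes were called, 1.20% higher and 2.80% lower. With the libraries scaled by median ratio, the calls over all genes were 200 higher and 211 lower, against 141 and 330 without it, and Vegfb and Esm1 were called in both. There 9 of 10 genes did not overlap, 2 higher and 7 lower, where 35.7% of all tested genes did not overlap, 13.9% higher and 21.8% lower. The 7 include Pgf, which passed the filter through the young controls, where it was highest. The median difference was -0.34 for the 10 genes and -0.045 over all genes.

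Between the libraries labelled knockout and the young controls, limma called 0 of 10 genes, with adjusted p of 0.348 to 0.989, where 0.212% of all tested genes were called, 0.0848% higher and 0.127% lower. At an unadjusted p under 0.05, where 9.27% of all tested genes were, there were 3 genes, Vegfa, Vegfb and Esm1, and limma-voom on recovered fragments also called 0. In 5 of 10 genes the libraries did not overlap, with Vegfa, Vegfb and Flt4 higher and Kdr and Esm1 lower, where 22.4% of all tested genes did not overlap, 8.46% higher and 14.0% lower. All 3 comparisons share groups, so their values are given side by side and are not independent.

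The balance of the 2 most abundant ligand transcripts was set out as a ratio. The ratio of Vegfa to Vegfb in FPKM was 2.631, 2.139 and 2.848 in the labelled knockout libraries, 1.064, 1.325 and 1.217 in aged controls, and 2.775, 2.596 and 2.712 in young controls. The aged controls were below all other libraries. The log2 ratio was 1.07 higher in the libraries labelled knockout than in the aged controls, and the difference for aged minus young controls was -1.17. Both had an exact two-sided permutation p of 0.1, the smallest that 3 against 3 libraries allow, and 0.225 after Benjamini-Hochberg adjustment over the 9 ratio comparisons made. For the libraries labelled knockout against the young controls it was -0.10 (exact permutation p 0.7) and 0.02 without labelled knockout replicate 2.

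Of the summed FPKM of the 4 ligands, Vegfa made up 62.4%, 63.0% and 58.4% in the labelled knockout libraries, 46.6%, 50.7% and 47.8% in aged controls, and 58.4%, 58.9% and 62.3% in young controls. Vegfb made up 23.7%, 29.5% and 20.5% in the labelled knockout libraries, 43.8%, 38.3% and 39.3% in aged controls, and 21.03%, 22.7% and 23.0% in young controls. In the aged controls the share of Vegfa was thus the lowest and that of Vegfb the highest of all libraries. These are shares of transcript levels in the sorted cells and say nothing of ligand made by other marrow cells.

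**Figure D3:**
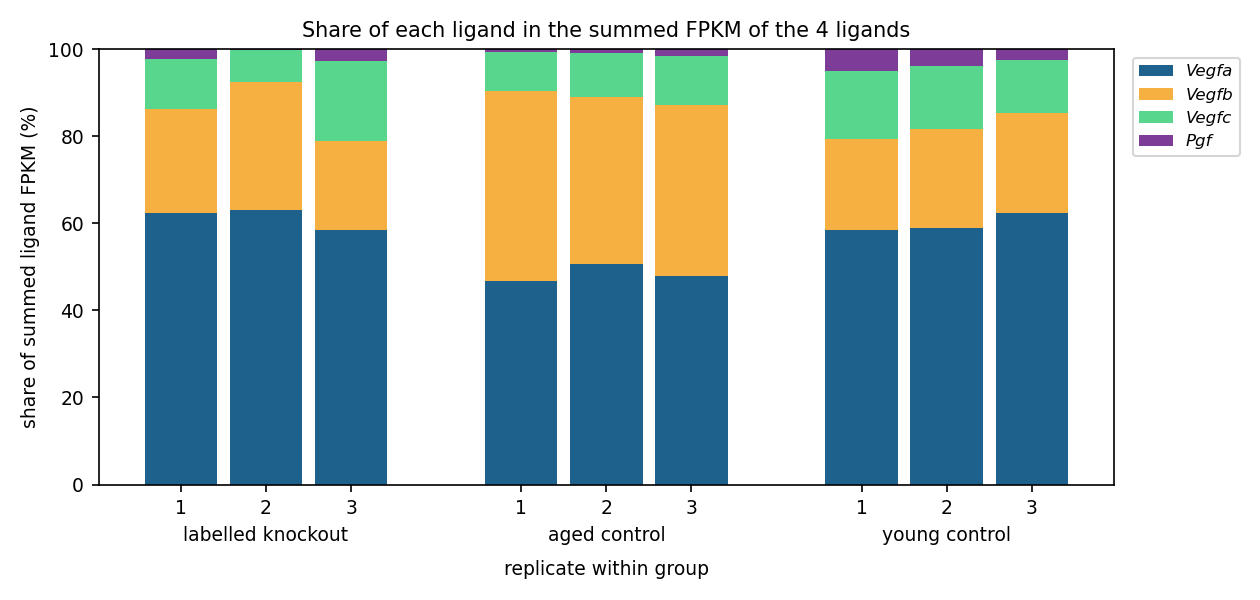
Share of Vegfa, Vegfb, Vegfc and Pgf in the summed FPKM of the 4 ligands, as stacked bars in percent for each library, by group. Vegfb takes 38.3% to 43.8% in the aged controls, above its 20.5% to 29.5% in the libraries labelled knockout and 21.03% to 23.0% in the young controls.

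The ratio of Nrp1 to Nrp2 averaged 1.26 ± 0.223 in the libraries labelled knockout, 1.02 ± 0.212 in the aged controls and 1.47 ± 0.095 in the young controls (SD, n = 3 each). Its log2 difference was -0.55 for aged minus young controls, without overlap (exact permutation p 0.1, adjusted 0.225), and 0.30 for the libraries labelled knockout minus the aged controls (exact permutation p 0.3). Without aged replicate 2 these differences were -0.36 and 0.12. The second was 0.19 without labelled knockout replicate 1, and it stayed within 0.27 to 0.45 without any other library of these groups. The ratio of Flt1 to Kdr, the decoy-like receptor over the main signalling receptor, averaged 0.106 ± 0.004 in the libraries labelled knockout, 0.098 ± 0.012 in the aged controls and 0.089 ± 0.004 in the young controls (SD, n = 3 each). Its log2 difference was 0.26 for the libraries labelled knockout minus the young controls, without overlap (exact permutation p 0.1, adjusted 0.225).

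The libraries labelled knockout were not alike. Replicate 2 was the lowest of the 3 for 7 of the 10 genes, where it was the lowest for 37.9% of all tested genes, and replicates 1 and 3 were the lowest for 1 and 2 of the 10. Replicate 2 lay inside the range of the aged controls for 6 of 10 genes, Kdr, Flt1, Flt4, Nrp1, Nrp2 and Esm1, where 55% of all tested genes did so. Replicate 1 did so for 2 of 10 genes and replicate 3 for 1, against 38.7% and 45.2% of all tested genes. Vegfa of replicate 2 lay above the aged range, and Vegfb, Vegfc and Pgf lay below it. For Vegfc and Pgf, replicates 1 and 3 lay above the aged range.

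Leaving out any 1 library other than labelled knockout replicate 2 left 1 of the 10 genes called between the libraries labelled knockout and the aged controls, Vegfa. Over all 11796 tested genes 197 to 503 were called in those fits. Without labelled knockout replicate 2, the library that was lowest of its group for 7 of these genes, limma called 6 of the 10 genes in this comparison, where 9.83% of all tested genes were then called. These were Vegfa, Flt1 (difference 0.42, adjusted p 0.0304), Nrp1 (0.60, adjusted p 0.0192), Vegfc (0.72, adjusted p 0.0372) and Esm1 (0.89, adjusted p 0.0182), all higher, and Vegfb, lower (-0.53, adjusted p 0.0360). In the same fit 5 of 10 were called between aged and young controls, Vegfb higher and Esm1, Kdr (adjusted p 0.0372), Nrp1 (adjusted p 0.0237) and Pgf (adjusted p 0.0362) lower, where 8.81% of all tested genes were called. Leaving out the library changes that comparison only through the shared estimate of the spread. Pgf is counted there although it passed the filter through the young controls, where it was highest. Without any 1 other library, 0 to 3 of the 10 were called between aged and young controls, where 5 to 606 of all tested genes were.

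**Figure D4:**
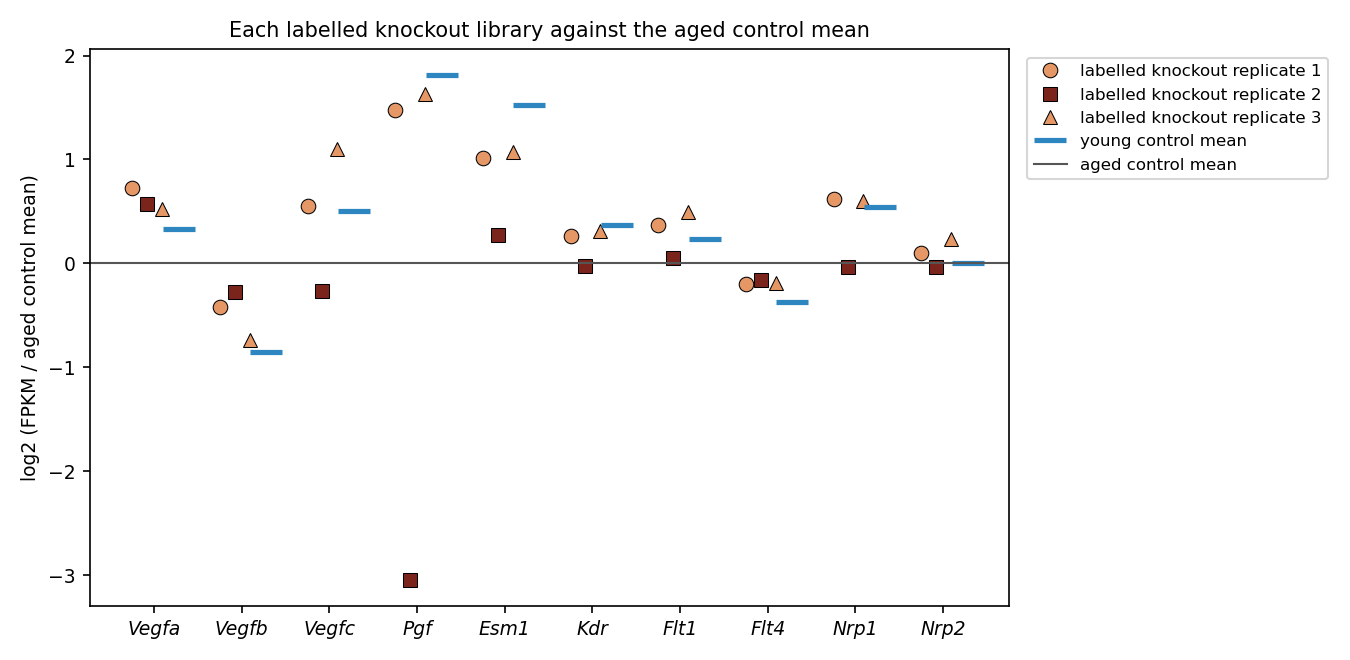
Each labelled knockout library as log2 of its FPKM over the aged control mean, with the young control mean as a dash and the aged control mean as the line at 0. Replicate 2 lies near the line for Kdr, Flt1, Nrp1 and Nrp2, while all 3 replicates lie above it for Vegfa and below it for Vegfb.

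Markers of other cells also differed among these libraries. The summed FPKM of the 8 markers of B and plasma cells was 4.60, 1787 and 533 in labelled knockout replicates 1, 2 and 3, 478 to 3018 in the aged controls and 6.15 to 517 in the young controls. The 8 erythroid markers summed to 50.3, 185 and 75.5 FPKM in labelled knockout replicates 1, 2 and 3, 67.8 to 201 FPKM in the aged controls and 119 to 121 FPKM in the young controls. The 10 arterial markers, led by Ly6a, summed to 367, 667 and 487 FPKM in those replicates, 649 to 737 FPKM in the aged controls and 379 to 452 FPKM in the young controls. Most of this arterial sum was Ly6a alone, at 255, 555 and 355 FPKM in those replicates and 549 to 657 FPKM in the aged controls. Dll4, also of this list, went the other way, at 63.0, 59.0 and 70.64 FPKM in those replicates and 34.73 to 50.35 FPKM in the aged controls. The summed levels of replicate 2 lay in the range of the aged controls for all 3 lists, and those of replicate 3 for the B and plasma cell and the erythroid lists. The arterial sum describes mainly Ly6a. None of these markers was at 0 in all libraries, and the part of these cells in the values of the receptors and Esm1 was not tested.

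Beside the age differences of Vegfb and Esm1, the 10 markers of stromal, osteoblast and fat cells, led by Cxcl12, summed to 37.7 to 50.1 FPKM in the libraries labelled knockout, 42.6 to 50.3 FPKM in the aged controls and 81.3 to 111 FPKM in the young controls. Single markers differed between the first 2 groups. Of the 5 tested, Adipoq was called lower in the libraries labelled knockout, at 3.33 to 4.55 against 5.53 to 6.72 FPKM, where 2.01% of all tested genes were. Ibsp, at 8.06 to 10.98 against 3.66 to 4.56 FPKM, and Kitl, at 2.05 to 3.74 against 1.4 to 1.9 FPKM, were higher without overlap, where 12.1% of all tested genes were. The 8 monocyte and macrophage markers, led by Cd14, summed to 63.0 to 76.6 FPKM in the libraries labelled knockout, 79.2 to 92.2 FPKM in the aged controls and 62.4 to 109 FPKM in the young controls, so the sums of the libraries labelled knockout were below those of all aged controls. Each of the 4 tested markers of this list overlapped between these 2 groups. Cd14 was at 28.91 to 41.67 FPKM in the libraries labelled knockout and 31.78 to 36.58 FPKM in the aged controls. The 8 smooth muscle and pericyte markers, led by Mcam, summed to 65.4 to 81.5 FPKM in the libraries labelled knockout, 55.0 to 68.8 FPKM in the aged controls and 73.1 to 80.1 FPKM in the young controls, so aged and young controls did not overlap. Mcam made up most of these sums, at 56.95 to 77.6, 49.16 to 61.05 and 60.24 to 65.51 FPKM in the same order of groups. Acta2 and Rgs5, the other markers of this list that were tested, were below all young controls in both other groups. In that order of groups, Acta2 was at 0.26 to 3.11, 1.05 to 2.97 and 3.41 to 6.85 FPKM. Rgs5 was at 0.55 to 2.84, 1.78 to 3.14 and 5.02 to 5.38 FPKM. The 8 neutrophil markers, led by S100a8, summed to 31.8 to 116 FPKM in the libraries labelled knockout, 12.4 to 272 FPKM in the aged controls and 5.74 to 139 FPKM in the young controls, and the 8 T and NK cell markers to at most 1.44 FPKM in the libraries labelled knockout, 1.98 FPKM in the aged controls and 1.97 FPKM in the young controls, so both lists overlapped between all groups. The 10 sinusoidal markers, led by Vcam1, overlapped between groups in their sums, at 1719 to 1978 FPKM in the libraries labelled knockout, 1750 to 2105 FPKM in the aged controls and 1825 to 1984 FPKM in the young controls. Single markers did differ. Of the 8 tested, Dnase1l3 and Fcgr2b were called lower in the libraries labelled knockout than in the aged controls, where 2.01% of all tested genes were. None was called higher, where 2.78% were. In aged against young controls 3 of the 8 were higher and 3 lower without overlap, where 13.9% and 21.8% of all tested genes were. The 6 lymphatic markers, led by Mmrn1, summed to 39.5 to 68.5 FPKM in the libraries labelled knockout, 32.1 to 39.5 FPKM in the aged controls and 66.4 to 80.4 FPKM in the young controls. Mmrn1 made up nearly all of these sums, at 37.51 to 64.56, 31.24 to 38.97 and 64.5 to 78.48 FPKM in the same order of groups. Of the others only Prox1 reached the minimum mean for testing, and Ccl21a was at 0 in all 9 libraries. The sum therefore describes mainly Mmrn1. The part of these cells in the differences was not tested. Megakaryocytes, which make VEGF-A and thrombospondin-1, left a summed marker level of 21.4 to 37.3 FPKM in the libraries labelled knockout, 24.4 to 35.1 FPKM in the aged controls and 25.7 to 30.0 FPKM in the young controls over 8 markers, led by Pf4, so the groups overlapped.

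The other genes of the pathway were followed in 7 lists. Over all tested genes, 2.78% were called higher and 2.01% lower in the libraries labelled knockout against the aged controls, and 1.20% higher and 2.80% lower in aged against young controls. Unadjusted p was under 0.05 for 24.1% and 27.7% of all tested genes in these comparisons. Of 18 tested genes that VEGF is known to induce in endothelial cells, 9 were higher in the libraries labelled knockout than in the aged controls and none lower, where 2.78% and 2.01% of all tested genes were, with a median difference of 0.58 against 0.0025 over all genes. Egr2, an early transcription factor, averaged 58.2 ± 2.29 FPKM in the libraries labelled knockout and 19.1 ± 0.875 FPKM in the aged controls (limma adjusted p 1.4e-05). Hbegf, an epidermal growth factor family ligand, averaged 31.9 ± 4.48 FPKM in the libraries labelled knockout and 12.7 ± 0.627 FPKM in the aged controls (limma adjusted p 0.000663). Nr4a2, an early nuclear receptor, averaged 28.2 ± 8.46 FPKM in the libraries labelled knockout and 11.6 ± 0.312 FPKM in the aged controls (limma adjusted p 0.0075). The remaining 6 called were Adamts1, Dusp5, Egr1, Icam1, Plaur and Sele. Many of these genes also respond to other stimuli, among them the isolation of cells, and their source was not tested.

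In the comparison of aged with young controls, 5 of the 18 genes were lower and none higher, where 2.80% and 1.20% of all tested genes were, with a median of -0.46 against -0.045. They were Egr2 (19.1 ± 0.875 FPKM in aged and 41.8 ± 2.48 FPKM in young controls), Hbegf, Nr4a2, Adamts1 and Sele. The count was 1, 2 and 1 without young replicate 1, 2 or 3, where 5, 31 and 12 of all tested genes were called. The call of Egr2 held in all 9 fits that left out a library.

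Of 17 tested genes of sprouting tip cells, 6 were higher in the libraries labelled knockout than in the aged controls and none lower, where 2.78% and 2.01% of all tested genes were, with a median of 0.84. They were Adm, Plaur, the basement membrane genes Col4a1, Col4a2 and Lama4, and Igfbp3, a binding protein of insulin-like growth factors. Col4a1 averaged 207 ± 63.7 FPKM in the libraries labelled knockout and 68.7 ± 33.9 FPKM in the aged controls (limma adjusted p 0.0317), and Igfbp3 averaged 81.9 ± 26.2 FPKM in the libraries labelled knockout and 27.7 ± 12.3 FPKM in the aged controls (limma adjusted p 0.0291). Of the 9 fits that left out a library, Col4a1 passed in 3 and Igfbp3 in 4. The count of the list was 10 without labelled knockout replicate 2, 1 and 2 without its replicates 1 and 3, and 3 without aged replicate 2 or any 1 of the young controls. Over all tested genes 1159 were called without labelled knockout replicate 2, and 197 and 224 without its replicates 1 and 3. They were 503 without aged replicate 2, and 313, 301 and 283 without young replicates 1, 2 and 3. In aged against young controls 2 were lower, Adm and Lama4, where 2.80% of all tested genes were, with a median of -0.73. That count was 5 without labelled knockout replicate 2, 1 without aged replicate 1, 2 or 3 or young replicate 2, and 0 without young replicate 1 or 3. Over all tested genes 1039 were called without labelled knockout replicate 2, and 314, 253 and 126 without aged replicates 1, 2 and 3. They were 5, 31 and 12 without young replicates 1, 2 and 3.

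Of 25 tested genes of the hypoxia response, the best known inducer of Vegfa, 4 were higher in the libraries labelled knockout than in the aged controls and none lower, where 2.78% and 2.01% of all tested genes were, with a median of 0.11. They were Adm, which encodes adrenomedullin, the collagen prolyl hydroxylase gene P4ha1, and the glucose metabolism genes Slc2a1 and Pfkfb3. Slc2a1 averaged 40.4 ± 5.72 FPKM in the libraries labelled knockout and 22.7 ± 5.63 FPKM in the aged controls (limma adjusted p 0.0288), and P4ha1 averaged 22.8 ± 3.31 FPKM in the libraries labelled knockout and 13.0 ± 1.28 FPKM in the aged controls (limma adjusted p 0.0101). P4ha1 passed in all 9 fits that left out a library, and Slc2a1 in 5. The count of the list was 2 without labelled knockout replicate 1 or young replicate 3, where 197 and 283 of all tested genes were called. In aged against young controls, where 2.80% of all tested genes were lower, 3 were, Adm, Pfkfb3 and Hif1a, the gene of the oxygen-regulated factor HIF-1 alpha, which averaged 59.7 ± 4.65 FPKM in the aged and 94.8 ± 4.73 FPKM in the young controls (limma adjusted p 0.0320). The median was -0.09, and the count was 1 without aged replicate 3 or young replicate 2 and 0 without young replicate 1 or 3. Over all tested genes 126, 31, 5 and 12 were called in those fits, in the same order.

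Of 25 tested genes of VEGF receptor signalling, limma called 0 between the libraries labelled knockout and the aged controls, with 5 at an unadjusted p under 0.05, where 24.1% of all tested genes were, and 0 by limma-voom. The count was 1 without labelled knockout replicate 2 or aged replicate 3, where 1159 and 441 of all tested genes were called. The genes of this list with the highest level, the small GTPase genes Cdc42 and Rac1, averaged 310.6 ± 5.69 and 226.5 ± 14.8 FPKM in the libraries labelled knockout and 320.5 ± 14.4 and 241.5 ± 36.6 FPKM in the aged controls. In aged against young controls, where 2.80% of all tested genes were lower, 1 was, Pik3ca, the catalytic subunit gene of phosphoinositide 3-kinase, at 4.24 ± 0.826 FPKM in the aged and 7.62 ± 1.10 FPKM in the young controls (limma adjusted p 0.0491). It did not pass without any 1 of the aged or young controls or without labelled knockout replicate 3, nor with median-ratio or quantile scaling, a pseudocount of 5 or no filter. The count of the list was 2 and 3 without labelled knockout replicates 1 and 2, where 606 and 1039 of all tested genes were called. Of 7 tested semaphorin and plexin genes limma called 0 in either comparison, with 1 at an unadjusted p under 0.05 in each, where 24.1% and 27.7% of all tested genes were, and 0 by limma-voom, and 1 between the libraries labelled knockout and the aged controls without labelled knockout replicate 2. Plxnd1, a semaphorin receptor gene of endothelium, averaged 60.4 ± 5.31 FPKM in the libraries labelled knockout, 59.5 ± 15.7 FPKM in the aged controls and 60.6 ± 2.22 FPKM in the young controls.

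Of 20 tested transcription factor genes of endothelium, Sox7 and Prox1 were higher in the libraries labelled knockout than in the aged controls, where 2.78% of all tested genes were. Sox7 averaged 64.7 ± 8.79 FPKM in the libraries labelled knockout and 36.2 ± 3.28 FPKM in the aged controls (limma adjusted p 0.0065). Prox1, the defining factor of lymphatic endothelium, averaged 2.53 ± 1.14 FPKM in the libraries labelled knockout and 0.567 ± 0.201 FPKM in the aged controls (limma adjusted p 0.0201). It did not pass without aged replicate 1 (limma adjusted p 0.0533), without a filter (0.0873) or with only the 2 groups compared fitted (0.0775). Erg and Hhex were lower in the aged controls, set against the young controls, where 2.80% of all tested genes were, and this count was 0 without labelled knockout replicate 3, aged replicate 3 or any 1 of the young controls, 1 without aged replicate 2, and 4 without labelled knockout replicate 1 or 2. Over all tested genes 606, 1039 and 115 were called without labelled knockout replicates 1, 2 and 3, and 253 and 126 without aged replicates 2 and 3. They were 5, 31 and 12 without young replicates 1, 2 and 3. Of the 10 other settings, Erg passed in 4 and Hhex in 5. Among 9 tested other genes of the VEGF system, Thbs1 was called in all 3 comparisons, and its receptor gene Cd36 fell to 222.5 ± 73.1 FPKM in the aged controls, against 500.1 ± 44.1 FPKM in the young controls (limma adjusted p 0.0371). The call of Cd36 did not hold without labelled knockout replicate 3, aged replicate 2 or 3, or any 1 of the young controls.

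Between the libraries labelled knockout and the young controls, limma called 0 genes in 6 of the 7 lists, and Thbs1 in the list of other VEGF system genes. At an unadjusted p under 0.05, where 9.27% of all tested genes were, there were 7 of the 18 VEGF-induced genes, 4 of the 20 transcription factor genes, 3 of the 25 hypoxia genes, 2 of the 17 tip cell genes and 0 of the genes of receptor signalling and of semaphorins and plexins. Limma-voom called 0 in the same 6 lists.

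**Figure D5:**
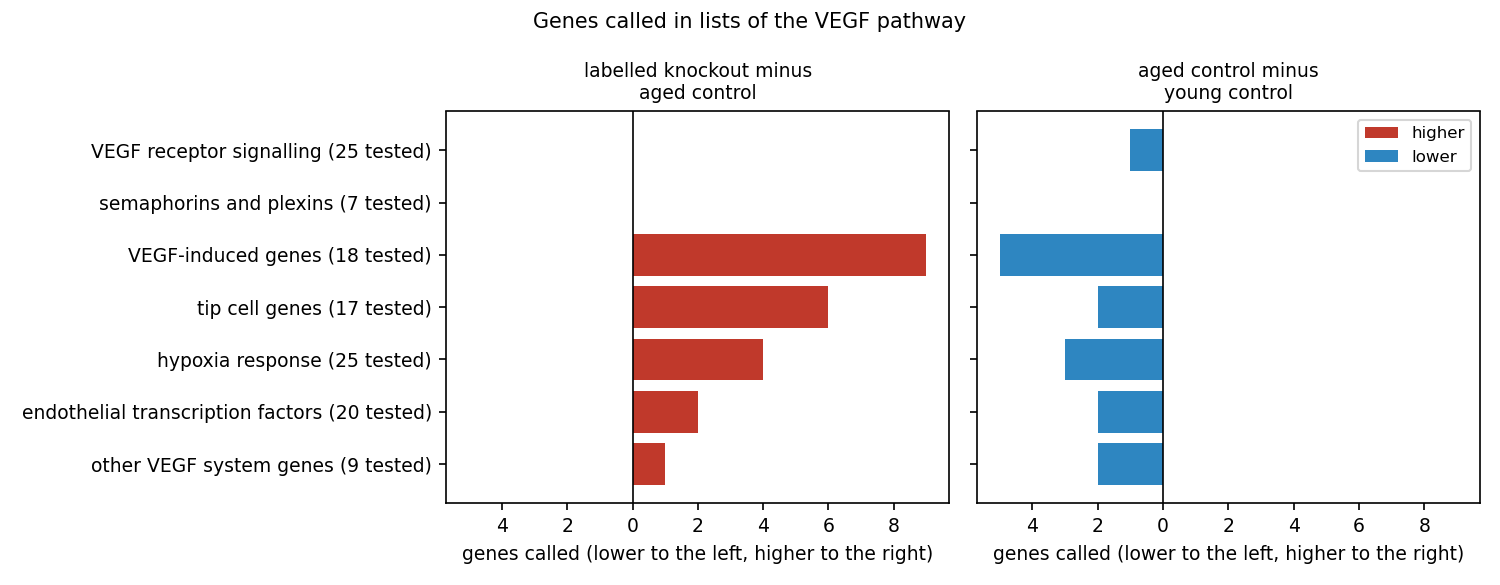
Number of genes called higher (to the right) or lower (to the left) in each of 7 lists, for labelled knockout minus aged control and for aged control minus young control. The longest bars are the VEGF-induced genes, with 9 of 18 higher in the libraries labelled knockout and 5 of 18 lower in the aged controls.

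For 3 of the members, the genes with the most similar course over the 9 libraries were looked up by the root mean square difference of log2(FPKM + 1) values, each gene centred on its own mean. Nearest to Vegfa, whose own SD was 0.26, were Dnajb1, a co-chaperone gene, at 0.06, Dusp5, a phosphatase gene of the ERK pathway, at 0.07, and Egr1, an early transcription factor gene, at 0.08, among 5342 genes with enough level and spread. Egr1 had FPKM values of 1401.02, 1270.58 and 1318.05 in the labelled knockout libraries, 768.48, 807.9 and 881.25 in aged controls and 980.34, 965.21 and 1131.81 in young controls. Nearest to Kdr, with an SD of 0.20, were Pcmtd2 at 0.04, Map4k3 at 0.05 and Etfdh at 0.06 among 6171 genes. For Esm1, with an SD of 0.62, the nearest genes were farther off, with Gask1b at 0.25, Arhgap18 at 0.26 and Tmem47 at 0.26 among 923 genes. The likeness rests on 9 libraries that share groups and depth.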

How the data were processed

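The authors deposited FPKM values with 2 decimals for 52183 genes in 9 libraries. The submitters' processing notes list FastQC 0.11.5, STAR, edgeR and the builds GRCm38 and mm10, without roles. How fragments were counted, and whether by strand, is not given in the sources used here. Groups and replicate numbers came from the labels. The members, gene lists and tests were chosen with earlier results of these data known.

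Depth was recovered from the FPKM of genes of 60 to 400 bases, using exon lengths of GENCODE release 21 on GRCm38, with a tolerance of 0.1 for a whole fragment. All 52183 identifiers matched. No 2 libraries were identical. The main test was limma 3.58.1 in R 4.3.3 on log2(FPKM + 1), with a mean for each of 3 groups, 6 residual degrees of freedom and eBayes with a trend. It covered the 11796 genes whose mean over the libraries reached 1 FPKM, with Benjamini-Hochberg adjustment and a threshold of 0.05. "Called" means an adjusted p under it, and differences use log2(FPKM + 1), where changes of low genes come out too small. Count tests were not used as the main test because the values are FPKM. Limma-voom was run on recovered fragments with scaling by trimmed mean of M values (TMM). Ratios were compared by exact two-sided permutation tests. The fit was checked on simulated data.

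Named genes were all 10 members, Thbs1, from each of 7 lists up to 3 called genes with the largest change in each of the first 2 comparisons (or the 2 with the highest level where none was called), and leading markers. Other called genes are named to complete counts, and were named after their values were seen. Figures were drawn with matplotlib 3.10.9 under Python 3.11.15. Isoforms were not analysed here.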

Additional observations from a re-analysis of the deposited data

How the results depend on the processing

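Among the 10 members, Thbs1 and the list genes named by the rule, no called difference changed its sign under the alternatives run; the other called list genes were not followed individually. The call of Vegfa in the labelled knockout against the aged controls held under all alternatives, with adjusted p of 0.00475 to 0.0485. The calls of Vegfb and Esm1 in aged against young controls held in 6 of 9 fits that left out a library and in 9 of 10 other settings; without a filter on low values, adjusted p was 0.0802 for Vegfb and 0.0885 for Esm1, and 0 of 10 genes were called. More genes enter the adjustment without the filter. Over all genes, the counts without a filter were 146 for the labelled knockout against the aged controls (565 as reported), 39 for aged against young controls (471) and 15 for the labelled knockout against the young controls (25). With a minimum mean of 5 FPKM the last was 12. Fitting only the 2 groups compared gave 149 for the labelled knockout against the aged controls and 716 for aged against young controls. Leaving out each library gave 197 to 1159, 5 to 1039 and 11 to 31 for all genes, and 1 to 6, 0 to 5 and 0 to 0 for the 10 members, in the order labelled knockout against aged, aged against young and labelled knockout against young. The causes of these shifts were not tested. Counting error weighs most on Pgf, which had 5 fragments in labelled knockout replicate 2, the deepest of the 9 libraries.

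The replicate numbers showed no clear pairing of the samples. Correlations of same-numbered deviations ran from -0.129 to 0.124, and not every sample correlated best with its own number. Whether samples of the same number shared a preparation is not given in the labels and was not tested. With the replicate number as a block, 183 genes were called in aged against young controls, 400 in the labelled knockout against the aged controls and 23 in the labelled knockout against the young controls, and 2, 1 and 0 of the 10 members. Pik3ca did not pass in aged against young controls under the block (adjusted p 0.0870).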
